A study of Mus musculus with 56 samples.

Results

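The genes described here were Il10, its neighbours Il19, Il20, and Il24 on chromosome 1, and the receptor genes Il10ra on chromosome 9 and Il10rb on chromosome 16. Every ChIP-seq peak that the deposited annotation assigned to one of these genes was taken from all 56 peak lists, which gave 1035 of 1610519 peaks and 6 of 20352 annotated genes. Merging overlapping peaks of one antibody within one experiment gave 299 regions, of which 228 had a peak in at least 2 samples and 71 in only 1 sample. The cells were wild-type mouse bone marrow-derived macrophages (BMDMs), taken from animals of 8 to 12 weeks and differentiated for 6 days in L929 supernatant. In the first experiment, untreated cells (ctrl) and cells given IL-4 at 20 ng/ml for 1 hr (IL-4) were profiled for RNAPII-pS5, RNAPII-pS2, H3K27Ac, p300, PU.1, HDAC1, HDAC2, and HDAC3. In the second, RNAPII-pS5, RNAPII-pS2, and p65 were profiled in cells left untreated (ctrl/ctrl), given IL-4 at 20 ng/ml for 24 hr (IL-4 PT/ctrl), given LPS for 1 hr (ctrl/LPS), or given IL-4 for 24 hr and then LPS (IL-4 PT/LPS). The labels give the LPS dose as 100 ng/ml. Each condition had 2 samples per antibody. The study describes its combined ChIP-seq data as coming from independent biological replicates.

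IL-10 is an anti-inflammatory cytokine that macrophages release after LPS, the bacterial cell wall component that activates Toll-like receptor signaling. IL-19, IL-20, and IL-24 belong to the same cytokine family but signal through other receptors. IL-10 binds the ligand-binding chain encoded by Il10ra, and the accessory chain encoded by Il10rb, which is shared with receptors of related cytokines, completes the receptor that activates Jak1, Tyk2, and Stat3. IL-4 activates the transcription factor STAT6, which was not analysed here.

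Of the antibodies, p300 marks a histone acetyltransferase found at enhancers, H3K27Ac the acetylated histone of active enhancers and promoters, PU.1 a macrophage lineage factor, HDAC1, HDAC2, and HDAC3 histone deacetylases, and p65 an NF-κB subunit that enters the nucleus after LPS. RNAPII-pS5 and RNAPII-pS2 are the initiating and elongating forms of RNA polymerase II. A position such as Il10 +14.1 kb is the distance from the transcription start site of that gene, positive in the direction of transcription. A peak score is a −log10 p- or q-value for all antibodies except H3K27Ac, for which it is a signal in normalized tags. A log2 difference is a difference of centred log2 scores, with its standard error (SE). It is not a fold change of binding, and where a group lacked a peak its size depended on the floor given to missing peaks. A region was called when limma's Benjamini-Hochberg adjusted p over all regions of the antibody was at most 0.05. A region with peaks in only 1 of the compared groups entered the test through that group, while samples without a peak held the one floor and did not vary, so such a call is no separate evidence of a difference. Regions with peaks only with or only without a treatment are therefore given by their scores, without SE or p, and the number of such calls is given beside the counts. ChIP-seq of a culture also cannot tell a site bound in more cells from a site bound more in each cell.

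Depth is unknown, since no reads were analysed, and the number of peaks per sample is its nearest record. In the IL-4 experiment it ran from 8440 (HDAC3) to 71027 (PU.1), and p300 stood apart with 44787 peaks in ctrl replicate 1 and up to 69360 in the other samples. Of p65, between 9556 and 11026 peaks were listed per sample without LPS, 26305 and 26820 in ctrl/LPS, and 36738 and 38955 in IL-4 PT/LPS, so the conditions also differed in the number of peaks. In the IL-4 experiment, the RNAPII-pS2 lists name their peaks after the other treatment than the sample label does, and the libraries are given here by their labels without a direction. The HDAC3 samples list the antibody number that the H3K27Ac samples list too. Macrophage markers carried RNAPII-pS5 peaks in all samples for 5 of 7 listed names (no peak carries the name Spi1, and Adgre1 is listed under its older name Emr1). Whether Spi1 is listed under another name was not checked, so it is not shown to lack polymerase. In the IL-4 experiment, RNAPII-pS5 peaks were missing from 2 of 3 fibroblast markers (Col1a1 and Pdgfra), 2 of 4 T cell markers (Cd3e and Cd3g), and 1 of 3 dendritic cell markers (Zbtb46). The summed RNAPII-pS5 score there lay between 0.0 and 3.4 for the fibroblast list, 92.7 and 134 for the T cell list, 80.5 and 131 for the dendritic cell list, and 545 and 656 for the macrophage list, and the part of other cell types in the results was not tested.

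The sequences below are the windows of 200 bases at the middle of the highest peak of 7 regions, read from the plus strand of mm10. The first 4 were the p300 regions with a match of the motif STAT6 is known to prefer, TTC followed by any 4 bases and GAA, and all 4 belonged to the 8 p300 regions that were higher after IL-4. Capitals mark that match. The windows lay at chr1:131033885-131034084 (intergenic, in an L2 LINE repeat by the annotation), chr1:131052483-131052682 (intergenic), chr16:91420572-91420771 (intron 5 of 6 of Il10rb), and chr9:45237438-45237637 (intron 1 of 4 of BC049352, the gene next to Il10ra, in an Lx8 LINE repeat).
Il10 +14.1 kb p300: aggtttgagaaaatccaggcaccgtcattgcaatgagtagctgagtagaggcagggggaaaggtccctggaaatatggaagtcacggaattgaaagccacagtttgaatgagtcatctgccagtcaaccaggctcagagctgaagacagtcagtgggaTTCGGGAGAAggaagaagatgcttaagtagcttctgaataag
Il10 +32.7 kb p300: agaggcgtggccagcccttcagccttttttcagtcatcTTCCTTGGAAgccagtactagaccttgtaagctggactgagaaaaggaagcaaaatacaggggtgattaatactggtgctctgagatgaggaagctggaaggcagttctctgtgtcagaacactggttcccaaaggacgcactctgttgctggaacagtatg
Il10rb +14.4 kb p300: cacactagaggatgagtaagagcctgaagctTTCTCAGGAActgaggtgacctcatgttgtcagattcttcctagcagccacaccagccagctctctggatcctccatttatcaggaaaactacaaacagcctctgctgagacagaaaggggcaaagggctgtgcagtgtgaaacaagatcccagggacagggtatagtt
Il10ra +31.6 kb p300: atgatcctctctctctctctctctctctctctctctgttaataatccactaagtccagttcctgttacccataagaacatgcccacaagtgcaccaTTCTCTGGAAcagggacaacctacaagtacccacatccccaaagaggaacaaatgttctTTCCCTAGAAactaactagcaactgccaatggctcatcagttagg
The last 3 were p65 windows, with matches of the κB motif and of TGANTCA in capitals. TGANTCA is a loose form of the AP-1 motif in which N is any base. The matches of Il10 −18.8 kb have A or T as that base. Il10 +18.4 kb (chr1:131038113-131038312) is shown as the Il10 region with the highest p65 scores, and Il10 −18.8 kb (chr1:131000977-131001176) and Il10rb +16.5 kb (chr16:91422617-91422816) as regions with a p65 peak in IL-4 PT/LPS samples only. The Il10rb window lay in intron 6 of 6 of Il10rb and in an Lx LINE repeat, and 180 of its 200 bases are masked as repeats in the reference.
Il10 +18.4 kb p65: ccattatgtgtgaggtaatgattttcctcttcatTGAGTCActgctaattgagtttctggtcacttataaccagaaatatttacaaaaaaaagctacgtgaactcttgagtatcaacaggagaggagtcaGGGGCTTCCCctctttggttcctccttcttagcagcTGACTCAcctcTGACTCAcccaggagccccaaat
Il10 −18.8 kb p65: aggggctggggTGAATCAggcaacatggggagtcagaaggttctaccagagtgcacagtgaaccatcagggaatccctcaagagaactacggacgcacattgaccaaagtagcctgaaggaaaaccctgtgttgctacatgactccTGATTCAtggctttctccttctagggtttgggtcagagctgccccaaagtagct
Il10rb +16.5 kb p65: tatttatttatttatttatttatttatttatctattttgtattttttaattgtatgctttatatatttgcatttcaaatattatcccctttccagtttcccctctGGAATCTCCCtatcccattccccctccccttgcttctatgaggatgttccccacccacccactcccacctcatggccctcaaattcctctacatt

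This STAT6 motif, a palindrome and so the same on both strands, was present in 4 of the 35 tested p300 windows of these genes, or 11.4%, and in 10.5% of all 67225 p300 windows. It was present in 4 of the 8 windows that were higher after IL-4, in 0 of the 26 windows that were not called, and in the 1 window called lower it was absent. Over all p300 windows, 39.9% of the 9124 called higher held it and 5.83% of the others. Among the 26 p65 windows, 8 held a κB match (30.8%) and 10 held TGANTCA (38.5%), against 11.9% and 23.3% of all 37556 p65 windows. All motifs were searched on both strands. The κB match and the 3 TGANTCA matches of Il10 +18.4 kb did not overlap one another. The shorter spacing, TTCNNNGAA, was found in 3 of the 35 p300 windows and in 8.46% of all, and GAGGAAGT, a PU.1 motif, in 3 of the 43 PU.1 windows and in 28.3% of all. Such a match describes the letters in the window and does not show binding.

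Il10 carried 300 peaks, with at least 1 in 55 of the 56 samples, and Il10ra and Il10rb had 410 and 268 peaks and at least 1 in every sample. Il20 had 39 peaks in 37 samples, nearly all at 1 site 7.4 kb upstream of its start that was shared by 8 antibodies. Il19 had 15 peaks in 9 samples and Il24 had 3 peaks in 3 samples. When the regions of all antibodies were merged, they formed 16 sites for Il10, 17 for Il10ra, and 11 for Il10rb, of which 5, 5, and 4 were shared by at least 5 antibodies. Of the 35 p300 regions, 27 (77.1%) overlapped a PU.1 region, and 30 of the 43 PU.1 regions (69.8%) overlapped a p300 region. Il10 spans chr1:131019845-131024974 on the plus strand, and 7 of its p300 regions lay beyond that span, between +6.2 and +33.5 kb.

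After 1 hr of IL-4, p300 scores at Il10 were higher at +14.1, +23.1, and +32.7 kb and lower at +18.4 kb. Among all 35 p300 regions of the 6 genes, 9 were called, 8 higher and 1 lower, which is 25.7% of them, against 21% of all p300 regions in either direction, so the share was near the background. Of the 9, 2 had no ctrl peak. The median log2 difference was 0.52 over these 35 regions and 0.11 over all. At Il10 +14.1 kb the scores were 8.11 and 18.0 in ctrl and 129 and 123 after IL-4. The IL-4 samples were both far above the ctrl samples, with a log2 difference of 2.71 ± 0.25 (SE, limma adjusted p = 4.2e-10). At +23.1 kb they were 21.8 and 63.4 in ctrl and 122 and 124 after IL-4, and the log2 difference was 1.06 ± 0.21 (limma adjusted p = 0.000346). At +32.7 kb ctrl replicate 1 had no peak, ctrl replicate 2 had 4.86, and the IL-4 samples had 41.5 and 21.9 (log2 difference 2.89 ± 0.66, limma adjusted p = 0.00139). The groups did not overlap at any of these 3 regions. Before centring, with a missing peak taken as 0, IL-4 lay above both ctrl scores at 20 of the 35 regions. It lay below both at 0 of them, and the share over all p300 regions is not given here. At +18.4 kb, by contrast, the IL-4 scores of 41.5 and 41.8 lay between the ctrl scores of 24.4 and 75.2, and the lower call (−0.71 ± 0.24, limma adjusted p = 0.0281) came from centring, without which the difference was −0.04. At the promoter (−0.2 kb) p300 scored 7.66 and 18.3 in ctrl and 38.5 and 18.6 after IL-4 and was not called.

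**Figure D1:**
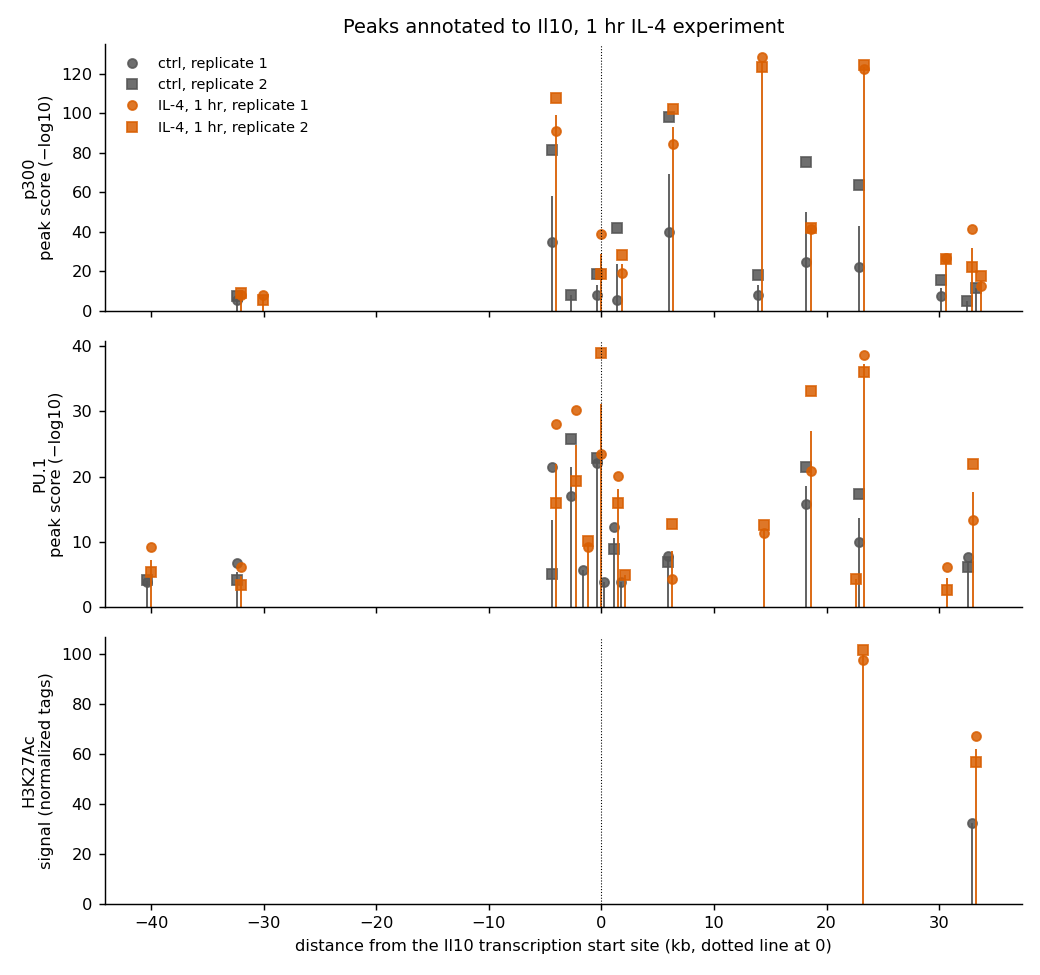
Scores of the peaks annotated to Il10 against the distance from its start site in kb, for p300 and PU.1 (−log10) and H3K27Ac (normalized tags), with 1 point per sample and a line to the mean of the samples with a peak. The IL-4 samples reach 129 and 123 for p300 at +14.1 kb, and the H3K27Ac region at +23.0 kb has points only after IL-4.

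The same sites showed other marks. H3K27Ac was absent from Il10 +23.0 kb in both ctrl samples and had a signal of 97.7 and 102 after IL-4. The next H3K27Ac region, at +33.1 kb in the 3′ end of Mapkapk2, had 32.2 and no peak in ctrl and 67.2 and 56.9 after IL-4 and was not called. PU.1 had no ctrl peak at +14.2 kb and scores of 11.4 and 12.6 after IL-4, and at +23.1 kb it had 9.91 and 17.3 in ctrl and 38.6 and 36.0 after IL-4. Neither passed the test (limma adjusted p = 0.432 and 0.445). RNAPII-pS5 had no ctrl peak at these 2 sites either and scored 3.77 and 3.66 after IL-4 at +14.2 kb and 11.4 and 4.23 at +23.1 kb. At +18.5 kb it had 8.30 and 5.30 in ctrl and no peak after IL-4, which also was not called (limma adjusted p = 0.114).

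At the receptor genes, the p300 regions that rose included the Il10rb promoter. Il10rb −0.3 kb had scores of 6.43 and 26.5 in ctrl and 50.1 and 64.8 after IL-4 (log2 difference 1.46 ± 0.29, limma adjusted p = 0.0003). Il10rb +14.4 kb had no peak in ctrl and 35.4 and 38.6 after IL-4, and no other antibody had a region in 2 samples there. Il10ra +31.6 kb had no ctrl peak and 47.4 and 31.1 after IL-4, where PU.1 went from no peak to 17.2 and 23.7 without passing the test (limma adjusted p = 0.245). At Il10ra +16.6 kb, just beyond the 3′ end of the gene, p300 rose from 9.71 and 38.5 to 117 and 126 (log2 difference 1.98 ± 0.23, limma adjusted p = 4.96e-08). HDAC3 and HDAC2 peaks at this site had higher scores after IL-4 as well, with none in ctrl and 18.5 and 12.1 after IL-4 for HDAC3 (limma adjusted p = 0.118) and none and 3.03 in ctrl and 12.9 and 10.6 after IL-4 for HDAC2 (limma adjusted p = 0.43), and neither was called. Il10ra +0.9 kb, in intron 1, had no peak and 12.1 in ctrl and 31.3 and 30.4 after IL-4 (2.27 ± 0.57, limma adjusted p = 0.00394). The IL-4 samples lay above both ctrl samples at each of these 5 regions, as they did at 20 of the 35 p300 regions of the 6 genes.

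**Figure D2:**
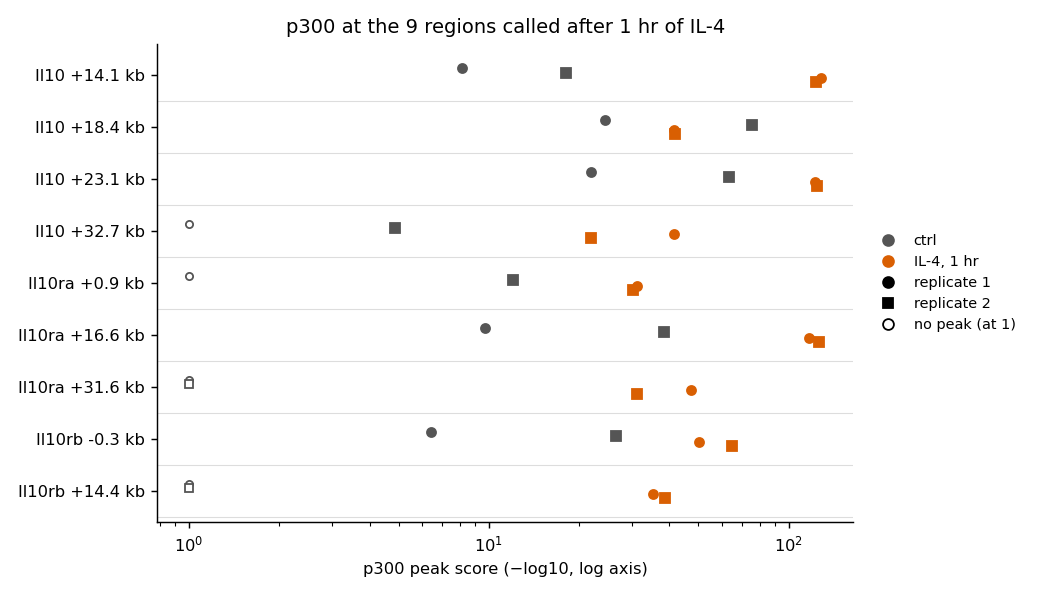
Peak scores of p300 (−log10, log axis) in the 2 ctrl and 2 IL-4 samples at the 9 regions called after 1 hr of IL-4, with open symbols at 1 for samples without a peak. The IL-4 points lie to the right of both ctrl points at all regions except Il10 +18.4 kb.

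The p300 values were computed again without the library that stood apart. Without ctrl replicate 1 all 9 regions still passed, among them the 2 with no ctrl peak, with the lone ctrl sample assumed to vary like the others and adjusted p of up to 0.043. Centring lowered every p300 difference by 0.67. Without it, the differences at these 9 regions kept their signs but 0 of the 9 regions passed, since no p300 region of the genome did. Leaving out IL-4 replicate 1 or replicate 2 left 4 called regions each, and leaving out ctrl replicate 2 gave 14. Without IL-4 replicate 1 the call at Il10 +32.7 kb (limma adjusted p = 0.194) was lost, without replicate 2 that at Il10rb −0.3 kb (limma adjusted p = 0.0588), and without either the calls at Il10 +18.4 kb (up to 0.132) and Il10ra +0.9 kb (up to 0.302). Il10rb +14.4 kb and Il10ra +31.6 kb then had a single peak and left the test. Quantile normalization gave 8 higher and 3 lower calls.

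H3K27Ac at the receptor genes changed little in size. Of the 9 H3K27Ac regions, 4 were called, 3 higher and 1 lower, against 43.4% of all regions, and 1 of the 4 had no ctrl peak. Il10rb −7.6 kb, in an intron of Ifnar2, rose from 398 and 382 to 459 and 490 (log2 difference 0.33 ± 0.05, limma adjusted p = 0.00827), and Il10rb +0.6 kb from 520 and 516 to 583 and 559 (0.19 ± 0.04, limma adjusted p = 0.0216). Il10ra +0.5 kb fell from 583 and 561 to 504 and 502 (−0.13 ± 0.03, limma adjusted p = 0.0416). Without IL-4 replicate 1 the Il10rb +0.6 kb call was lost (limma adjusted p = 0.095), and the Il10ra call was lost without ctrl replicate 1 or either IL-4 replicate (up to 0.16). Leaving out either IL-4 sample left 2 called regions, with Il10 +23.0 kb no longer tested since it then had a single peak, and quantile normalization gave 2 higher and 2 lower.

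The highest regions of these genes were mostly not those that were called. The following were chosen after their values were seen. At Il10rb +9.5 kb, a site shared by 9 antibodies in intron 4, p300 scored 104 and 214 in ctrl and 175 and 190 after IL-4, and H3K27Ac at +9.9 kb had 561 and 525 in ctrl and 543 and 545 after IL-4. The IL-4 scores lay between the ctrl scores for both. At Il10ra −12.0 kb, also shared by 9 antibodies, p300 had 38.8 and 92.4 in ctrl and 92.2 and 102 after IL-4, and PU.1 had 66.1 and 44.3 in ctrl and 77.3 and 86.6 after IL-4. HDAC1 at this site went the other way, from 21.6 and 17.2 to 8.15 and 5.94 (−1.15 on the log2 scale, limma adjusted p = 0.378), and was not called. Upstream of Il20, at −7.3 kb, p300 had 29.2 and 102 in ctrl and 70.8 and 90.7 after IL-4, and the groups overlapped. H3K27Ac there was weak, with 18.4 and 23.7 in ctrl and 17.2 and 14.2 after IL-4.

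The remaining antibodies gave 0 called regions of these genes after 1 hr of IL-4. Limma called 0 of 20 RNAPII-pS5 regions, against 0.389% of all regions. It called 0 of 43 PU.1 regions (0.0735% of all) and 0 of 11 HDAC1 regions (0% of all). For HDAC2 it called 0 of 16 (0.00404% of all) and for HDAC3 0 of 10 (1.32% of all). Of the libraries labelled ctrl and IL-4 for RNAPII-pS2, 0 of 12 regions were called (0.541% of all). At an unadjusted limma p of at most 0.05 there were 4 of the 20 RNAPII-pS5 regions, against 7068 of all 32095. There were 5 of 43 for PU.1 (7202 of all 67996) and 4 of 11 for HDAC1 (3595 of all 27384). HDAC2 had 2 of 16 (2820 of all 24751), HDAC3 1 of 10 (2343 of all 12567), and RNAPII-pS2 0 of 12 (4338 of all 18314). At Il10ra +0.6 kb, the highest RNAPII-pS5 region of these genes, the scores were 91.4 and 79.0 in ctrl and 100.4 and 100.0 after IL-4 (limma adjusted p = 0.22). A region that was not called is not shown to be unaffected. The PU.1 and HDAC3 counts did not stay the same when either ctrl replicate was left out. Those fits kept a single ctrl sample, and no share over all regions is given for them, so nothing is drawn from them.

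LPS changed RNA polymerase around Il10, and the direction depended on the region. Of the 19 RNAPII-pS5 regions of these genes, 7 were called between ctrl/LPS and ctrl/ctrl, 3 higher and 4 lower, against 30.4% of all regions. Of the 27 RNAPII-pS2 regions, 12 were called, 6 in each direction, against 34.3%. In 6 of these 7 and 7 of these 12 calls, 1 of the conditions had no peak. At Il10 +18.3 kb, RNAPII-pS2 scored 4.35 and no peak in ctrl/ctrl, 8.66 and 10.4 in IL-4 PT/ctrl, 44.0 and 50.7 in ctrl/LPS, and 11.1 and 9.51 in IL-4 PT/LPS. The ctrl/LPS samples stood above all others, and those of IL-4 PT/LPS overlapped IL-4 PT/ctrl. The LPS effect was 4.07 ± 0.50 on the log2 scale without pretreatment (limma adjusted p = 0.00165), and IL-4 PT/LPS was lower than ctrl/LPS by a log2 difference of −2.15 ± 0.50 (limma adjusted p = 0.0325). The test of the difference between the LPS effects gave −4.14 ± 0.71 (limma adjusted p = 0.01). At 1.8 kb, in intron 3, RNAPII-pS2 had peaks only after LPS, of 4.67 and 3.96 in ctrl/LPS and 5.40 and 5.34 in IL-4 PT/LPS. At the Il10 start site (0.0 kb) it had peaks only in ctrl/ctrl, of 9.0 and 7.47.

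In intron 1 of Il10, both forms of polymerase lacked a peak only in IL-4 PT/LPS. RNAPII-pS5 at +1.1 kb scored 5.20 and 3.75 in ctrl/ctrl, 3.75 and 5.69 in IL-4 PT/ctrl, and 8.97 and 6.56 in ctrl/LPS, and had no peak in IL-4 PT/LPS. At +5.9 kb, just past the 3′ end, it scored 2.93 and 4.99, 5.0 and 4.61, and 8.58 and 6.19 in the same order, again with no peak in IL-4 PT/LPS. RNAPII-pS2 at +1.1 kb scored 3.86 and 3.63, 5.03 and 4.38, and 4.35 and 7.49, with no peak in IL-4 PT/LPS. The ctrl/LPS samples lay above the ctrl/ctrl and IL-4 PT/ctrl samples for RNAPII-pS5, and overlapped them for RNAPII-pS2. IL-4 PT/LPS was called lower than ctrl/LPS at these regions, by log2 differences of −2.60, −2.53, and −1.98 in the order given. Its samples held the floor there, so the sizes depend on the floor and the calls are no separate evidence. RNAPII-pS2 at +6.0 kb, by contrast, had a peak in all 8 samples. It scored 8.98 and 9.23 in ctrl/ctrl and 27.2 and 15.9 in IL-4 PT/ctrl. After LPS it scored 16.1 and 20.9 in ctrl/LPS and 22.55 and 22.64 in IL-4 PT/LPS, a difference that was not called. Downstream, RNAPII-pS5 at +26.5 kb and RNAPII-pS2 at +26.3 kb had peaks only after LPS, with RNAPII-pS5 at 5.77 and 4.99 in ctrl/LPS and 7.84 and 6.68 in IL-4 PT/LPS.

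**Figure D3:**
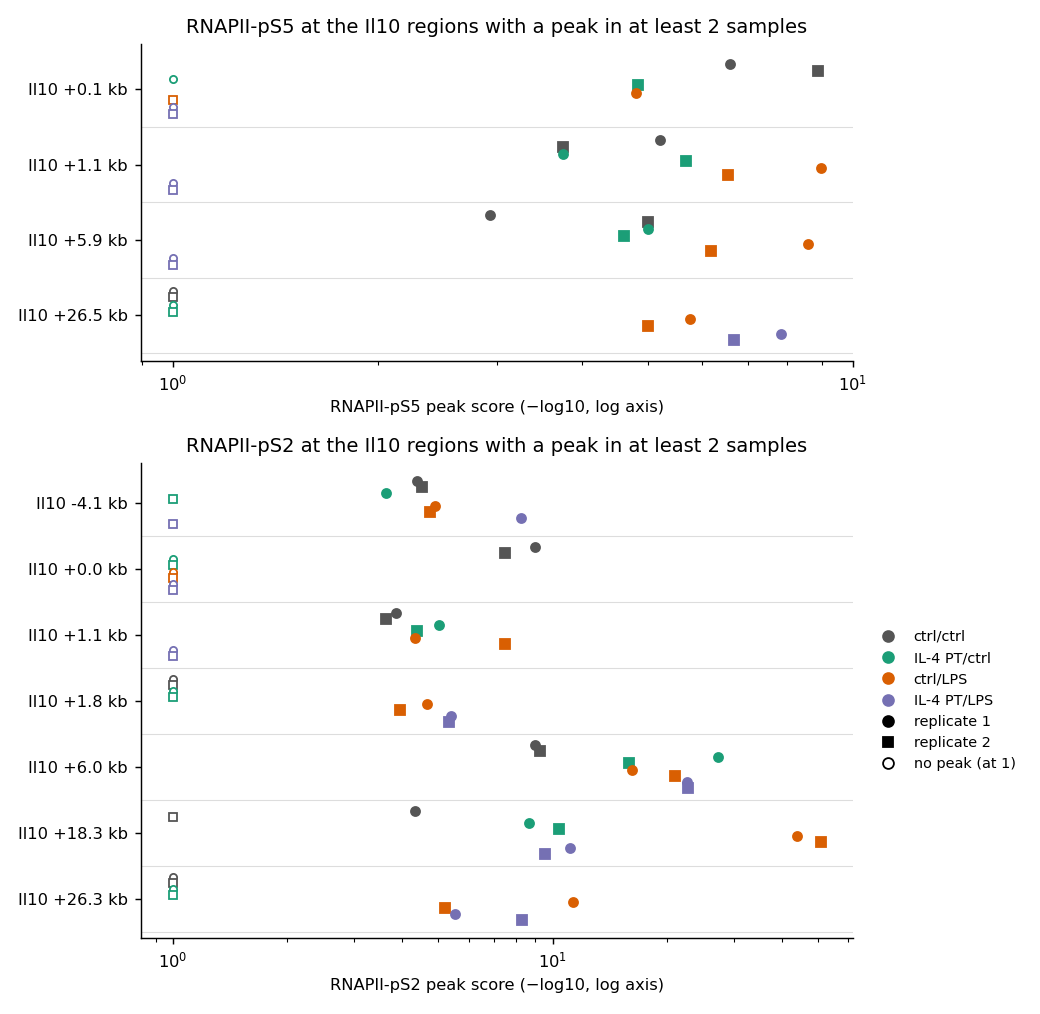
Peak scores of RNAPII-pS5 and RNAPII-pS2 (−log10, log axis) at the Il10 regions that 2 or more of the 8 samples list, by condition, with open symbols at 1 for samples without a peak. Both IL-4 PT/LPS samples lack a peak at +1.1 kb for both antibodies and at +5.9 kb for RNAPII-pS5, and the ctrl/LPS samples lead RNAPII-pS2 at +18.3 kb with 44.0 and 50.7.

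Over all 6 genes, 4 of the 19 RNAPII-pS5 regions were called for IL-4 PT/LPS against ctrl/LPS (14.4% of all regions) and 2 of the 27 RNAPII-pS2 regions (17.7%), and the difference of the LPS effects was called in 3 (17.7%) and 3 (20.2%). These shares were near or below the background, and IL-4 PT/LPS or ctrl/LPS had no peak in 3 of the 4 and 1 of the 2 calls. The floor of missing peaks was 1.44 for RNAPII-pS5 and 1.39 for RNAPII-pS2. With a floor 4 times as high, 0 RNAPII-pS5 and 1 RNAPII-pS2 differences of the LPS effects remained called. Leaving out any 1 sample of ctrl/LPS or IL-4 PT/LPS lost some of the 4 RNAPII-pS5 calls of IL-4 PT/LPS against ctrl/LPS. The difference at Il10 +1.1 kb ran from −2.90 to −2.39 without each sample, with IL-4 PT/LPS at the floor. The call at +5.9 kb was lost without ctrl/LPS replicate 1 or either IL-4 PT/LPS sample. For RNAPII-pS2, 0 of the 2 calls were left without either IL-4 PT/LPS sample (adjusted p of up to 0.0857 at +1.1 kb and 0.152 at +18.3 kb), and 1 without ctrl/LPS replicate 2. The call at +18.3 kb was also lost without any sample of ctrl/LPS or IL-4 PT/ctrl, and its difference of the LPS effects only without an IL-4 PT/LPS sample (up to 0.0587). The 3 RNAPII-pS5 differences of the LPS effects, 1 higher and 2 lower, went to 0 without ctrl/ctrl replicate 1 or either IL-4 PT/LPS sample and to 1 without ctrl/ctrl replicate 2 or ctrl/LPS replicate 1, and were 4 higher and 2 lower without centring. The 3 RNAPII-pS2 differences went to 1 without either IL-4 PT/LPS sample.

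The receptor genes differed in their polymerase regions. Il10ra +0.9 kb, in intron 1, had RNAPII-pS5 scores of 26.8 and 24.9 in ctrl/ctrl, 21.7 and 30.0 in IL-4 PT/ctrl, 15.4 and 17.1 in ctrl/LPS, and 46.9 and 34.1 in IL-4 PT/LPS. IL-4 PT/LPS was the highest condition and ctrl/LPS the lowest, and the difference between them was 1.11 ± 0.22 (limma adjusted p = 0.0216). This call was lost without either ctrl/LPS sample or IL-4 PT/LPS replicate 1 (adjusted p of up to 0.107), and the region is named here although 4 other Il10ra regions had lower p. Il10ra +7.0 kb, in intron 5, had 6.12 and 7.31, 7.29 and 7.58, no peak, and 4.68 and 5.43 in the same order. Its LPS effect without pretreatment was called lower, with ctrl/LPS at the floor. Upstream, Il10ra −9.5 kb had RNAPII-pS5 peaks of 9.70 and 9.81 in ctrl/LPS and 15.6 and 14.5 in IL-4 PT/LPS, with 1 peak of 3.99 among the 4 samples without LPS. Il10ra −12.0 kb had peaks only in ctrl/ctrl, of 6.78 and 8.23. For IL-4 alone, 3 of the 19 RNAPII-pS5 regions (16.8% of all) and 5 of the 27 RNAPII-pS2 regions (22.6%) were called, of which 2 and 3 had no peak in 1 of the conditions. The first count went to 0 and 1 without ctrl/ctrl replicate 1 and 2, and the second to between 1 and 3 without any one of the 8 samples.

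At Il10rb, RNAPII-pS5 at +0.5 kb scored 6.98 and 6.29 in ctrl/ctrl, no peak and 5.65 in IL-4 PT/ctrl, 8.52 and 7.54 in ctrl/LPS, and 16.7 and 17.6 in IL-4 PT/LPS. Both IL-4 PT/LPS samples were above all others, and the LPS effect with pretreatment was 2.59 ± 0.61 (limma adjusted p = 0.024), a call lost without either IL-4 PT/LPS sample (up to 0.0942). Beyond the 3′ end, at +21.7 kb, RNAPII-pS5 fell with LPS from 17.5 and 16.4 to 5.02 and 4.19 (−1.70 ± 0.24, limma adjusted p = 0.0036). RNAPII-pS2 at Il10rb +7.3 kb, in intron 3, had peaks of 5.82 and 5.67 in ctrl/ctrl and 4.73 and 5.08 in IL-4 PT/ctrl and none after LPS. With pretreatment, the LPS effect was called in 9 of the 19 RNAPII-pS5 regions (29% of all) and 11 of the 27 RNAPII-pS2 regions (31%), of which 5 and 7 had no peak in 1 of the conditions. Without IL-4 PT/LPS replicate 1 or replicate 2 these counts were 3 and 3 for RNAPII-pS5, and 4 and 6 for RNAPII-pS2. Without IL-4 PT/ctrl replicate 2, 5 RNAPII-pS5 regions were called, and without IL-4 PT/ctrl replicate 1, 7 RNAPII-pS2 regions. For the LPS effect without pretreatment, the 12 RNAPII-pS2 calls went to 7 without ctrl/ctrl replicate 1 or ctrl/LPS replicate 2 and to 4 without ctrl/ctrl replicate 2.

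Among the p65 regions the highest scores were at Il10ra +16.6 kb and Il10rb +9.5 kb, and within the Il10 regions at +18.4 kb. Of 26 p65 regions, 16 were called between ctrl/LPS and ctrl/ctrl (46.9% of all regions), but 4 of these had no peak in either condition, where the called difference of −1.04 came from one floor given before centring. They are Il19 +5.9 kb, Il10 −18.8 kb, Il10rb −12.9 kb, and Il10rb +16.5 kb, and their LPS effect without pretreatment is set aside. In another 7 of the 16, 1 of the conditions had no peak. The 16 calls were 9 higher and 7 lower. With one floor after centring they were 10 and 1, without centring 11 and 0, and after quantile normalization 5 and 7, so only directions that the scores themselves show are given below. At Il10 +18.4 kb p65 scored 4.21 and no peak in ctrl/ctrl, 5.27 and 5.64 in IL-4 PT/ctrl, 56.4 and 46.2 in ctrl/LPS, and 22.2 and 31.3 in IL-4 PT/LPS. The conditions with LPS were well above those without (LPS effect 3.40 ± 0.56, limma adjusted p = 0.00607). The IL-4 PT/LPS scores lay below both ctrl/LPS scores, but this difference was not called (−1.22 ± 0.56, limma adjusted p = 0.175), nor was the difference of the LPS effects (−2.63 ± 0.79, limma adjusted p = 0.0698).

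Il10 +6.2 kb had p65 scores of 4.21 and no peak, 5.94 and 6.95, 36.5 and 26.5, and 44.4 and 42.5 in the order ctrl/ctrl first, then IL-4 PT/ctrl, then ctrl/LPS, and last IL-4 PT/LPS (LPS effect 2.68 ± 0.56, limma adjusted p = 0.0126). This call was lost without ctrl/LPS replicate 1 (adjusted p of up to 0.0595). Il10 −17.1 kb had p65 peaks only after LPS, of 18.0 and 14.9 in ctrl/LPS and 19.4 and 12.6 in IL-4 PT/LPS, and the 2 conditions overlapped. Il10 −18.8 kb had peaks of 15.2 and 10.2 in IL-4 PT/LPS only. At Il10 −4.4 kb all 8 samples had a p65 peak, from 6.96 in IL-4 PT/ctrl replicate 1 to 36.3 in ctrl/LPS replicate 1, and no difference was called. This last region is named although no rule chose it, because it alone among the Il10 regions had p65 in every sample.

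The peak upstream of Il20 had higher scores after LPS without pretreatment for all 3 antibodies. p65 at Il20 −7.2 kb had no peak without LPS, 35.7 and 22.6 in ctrl/LPS, and 64.5 and 59.9 in IL-4 PT/LPS. The 2 LPS conditions did not overlap, but the difference was not called (0.86 ± 0.28, limma adjusted p = 0.0671). RNAPII-pS5 at −7.4 kb likewise had no peak without LPS and scored 6.29 and 10.1 in ctrl/LPS and 4.88 and 8.61 in IL-4 PT/LPS. RNAPII-pS2 at −7.3 kb was present in all 8 samples, with 12.2 and 12.1 in ctrl/ctrl, 9.54 and 17.1 in IL-4 PT/ctrl, 24.7 and 37.8 in ctrl/LPS, and 41.5 and 31.1 in IL-4 PT/LPS. Its LPS effect of 1.14 ± 0.34 (limma adjusted p = 0.0424) was lost without either ctrl/ctrl sample, ctrl/LPS replicate 2, or either IL-4 PT/LPS sample (up to 0.179). Il19 had p65 peaks at −1.1 kb only after LPS, of 7.84 and 3.77 in ctrl/LPS and 6.57 and 8.28 in IL-4 PT/LPS, which were not called. Il24 had a single p65 peak, of 2.43 in IL-4 PT/LPS replicate 1, and 2 PU.1 peaks.

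Il10rb had the widest spread of p65 among the conditions. At +11.0 kb, in intron 4, p65 had no peak without LPS, 21.0 and 15.9 in ctrl/LPS, and 50.3 and 65.8 in IL-4 PT/LPS. The pretreatment effect under LPS was called (1.38 ± 0.24, limma adjusted p = 0.00766), with an SE that also rests on the 4 samples at the floor. At +16.5 kb the only peaks were 51.0 and 56.2 in IL-4 PT/LPS. No other antibody had a region in 2 samples at +11.0 or +16.5 kb. Il10rb −8.0 kb, in an Ifnar2 intron, had 11.9 and 14.0 in ctrl/LPS, 20.6 and 17.2 in IL-4 PT/LPS, and no peak without LPS. Il10rb −12.9 kb had weak peaks of 4.69 and 5.96 in IL-4 PT/LPS only. At the Il10rb promoter (−0.5 kb) p65 was lower in ctrl/LPS (4.81 and 6.0) than in ctrl/ctrl (10.3 and 9.29). It scored 6.81 and 12.5 in IL-4 PT/ctrl and 10.4 and 14.2 in IL-4 PT/LPS. The LPS effect without pretreatment was called lower there with centring but not without it. At Il10rb +9.5 kb, outside the 4 regions of lowest p, every sample had a peak, from 5.78 to 14.0 without LPS, 51.9 and 41.2 in ctrl/LPS, and 85.4 and 81.9 in IL-4 PT/LPS.

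**Figure D4:**
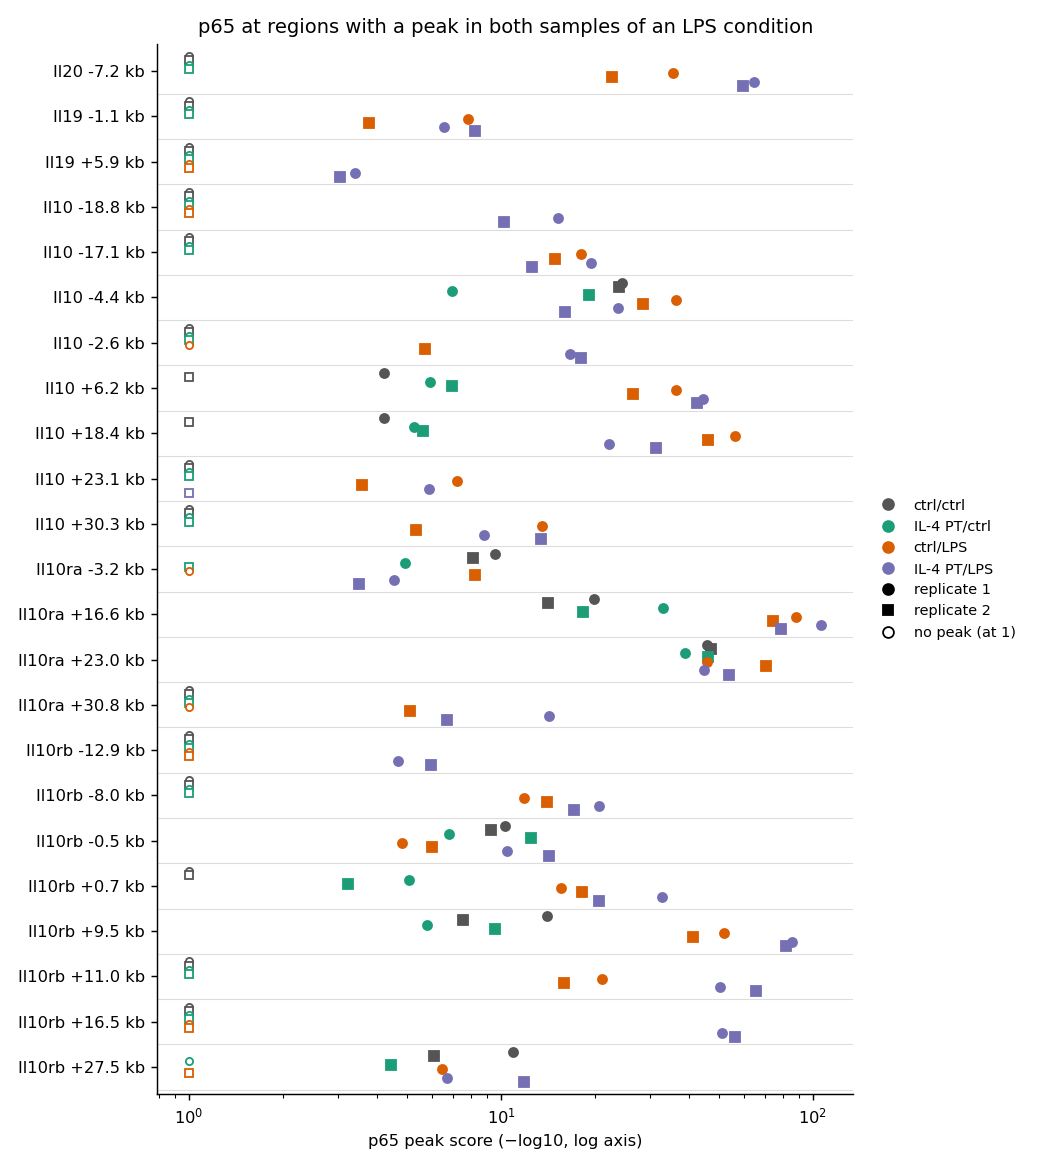
Peak scores of p65 (−log10, log axis) in the 8 samples at the 23 regions listed in both samples of 1 or both LPS conditions, with open symbols at 1 for samples without a peak. The IL-4 PT/LPS points lie to the right of the ctrl/LPS points at Il20 −7.2 kb and Il10rb +11.0 kb and to their left at Il10 +18.4 kb.

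At Il10ra, p65 was present without LPS. Il10ra +23.0 kb had 45.6 and 47.0 in ctrl/ctrl, 39.0 and 46.2 in IL-4 PT/ctrl, 45.7 and 70.7 in ctrl/LPS, and 44.8 and 53.7 in IL-4 PT/LPS. The conditions overlapped, and the called LPS effects of −0.75 ± 0.24 and −1.30 ± 0.24 (limma adjusted p = 0.0489 and 0.00869) turned to 0.30 and 0.21 without centring, so no direction is given. Il10ra +16.6 kb, where p300 rose after 1 hr of IL-4, had p65 scores of 19.9 and 14.2, 33.1 and 18.3, 88.2 and 74.3, and 107 and 79.2 in the same order (LPS effect 1.22 ± 0.34, limma adjusted p = 0.0301). That call was lost without any of the ctrl/ctrl or ctrl/LPS samples (up to 0.144). IL-4 pretreatment under LPS left Il10ra +16.6 kb uncalled (−0.09 ± 0.34, limma adjusted p = 0.89).

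Over all 26 p65 regions, 6 were called higher and 0 lower in IL-4 PT/LPS than in ctrl/LPS (3 and 1 after quantile normalization, which turned the sign of Il19 +5.9 kb), which is 23.1% of them against 30.9% of all regions, and 4 of the 6 had no ctrl/LPS peak. The LPS effect with pretreatment was called in 13 (41.3% of all), 10 higher and 3 lower, against 17 and 0 without centring, 14 and 1 with one floor after centring, and 5 and 5 after quantile normalization. Of these 13, 10 had no peak in IL-4 PT/ctrl or in IL-4 PT/LPS. The difference of the LPS effects was called in 4 (23.3% of all) and the effect of IL-4 alone in 1 (4.37% of all), Il10rb +0.7 kb, a call lost without any 1 sample of ctrl/ctrl, IL-4 PT/ctrl, or ctrl/LPS (adjusted p of up to 0.169) and kept without either IL-4 PT/LPS sample. Centring lowered the p65 differences by 1.04 for LPS alone, 1.51 for LPS with pretreatment, and 0.27 for pretreatment under LPS. The IL-4 PT/LPS lists held more peaks, and the part of this in the results was not tested. With the same number of top-scoring peaks in every sample, 2 of the pretreatment calls under LPS and 1 of the differences were left. Without IL-4 PT/LPS replicate 1 or 2, 0 of the 6 calls and 0 of the 4 differences were left, since regions with a peak only in these 2 samples then no longer had the 2 peaks needed to be tested and Il10rb +11.0 kb reached an adjusted p of up to 0.0875. The 13 calls went to 5 and 6 without IL-4 PT/LPS replicate 1 and 2, and the 16 calls of the LPS effect to 10 without either ctrl/ctrl or either IL-4 PT/LPS sample.

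Summed over all peaks of a gene, the mean p65 score was lowest in IL-4 PT/ctrl and highest in IL-4 PT/LPS for Il10, Il10ra, and Il10rb, while the mean RNAPII-pS5 score was highest in ctrl/LPS for Il10 and lowest there for both receptor genes. The sum of p65 for Il10rb was 29.1 ± 8.7 (SD, n = 2) in ctrl/ctrl, 25.4 ± 11.0 in IL-4 PT/ctrl, 104 ± 12 in ctrl/LPS, and 268 ± 8 in IL-4 PT/LPS. The first pair overlapped and each later step was larger than the spread of the samples. For Il10 the sums of p65 were 28.4 ± 6.3, 26.7 ± 7.2, 156 ± 23, and 159 ± 21 in the same order, and the 2 LPS conditions overlapped, as did those of Il10ra, with 148 ± 21 and 165 ± 20. The RNAPII-pS5 sum of Il10 was 16.2 ± 2.1, 11.9 ± 4.5, 34.2 ± 7.1, and 12.3 ± 1.2, so ctrl/LPS stood above the other 3. Its RNAPII-pS2 sum was 27.7 ± 4.1, 37.6 ± 9.8, 95.4 ± 2.4, and 55.8 ± 6.5. The RNAPII-pS5 sum of Il10ra was 98.0 ± 17.8, 67.8 ± 6.5, 61.0 ± 2.4, and 106 ± 3, where ctrl/LPS was lower than IL-4 PT/LPS and ctrl/ctrl and overlapped neither. Limma on scores summed per gene left out peaks annotated as intergenic, so it tested other sums than those above. It called 2 of these genes for RNAPII-pS5 and 0 for p65 between IL-4 PT/LPS and ctrl/LPS. The share over all genes is not given here.

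**Figure D5:**
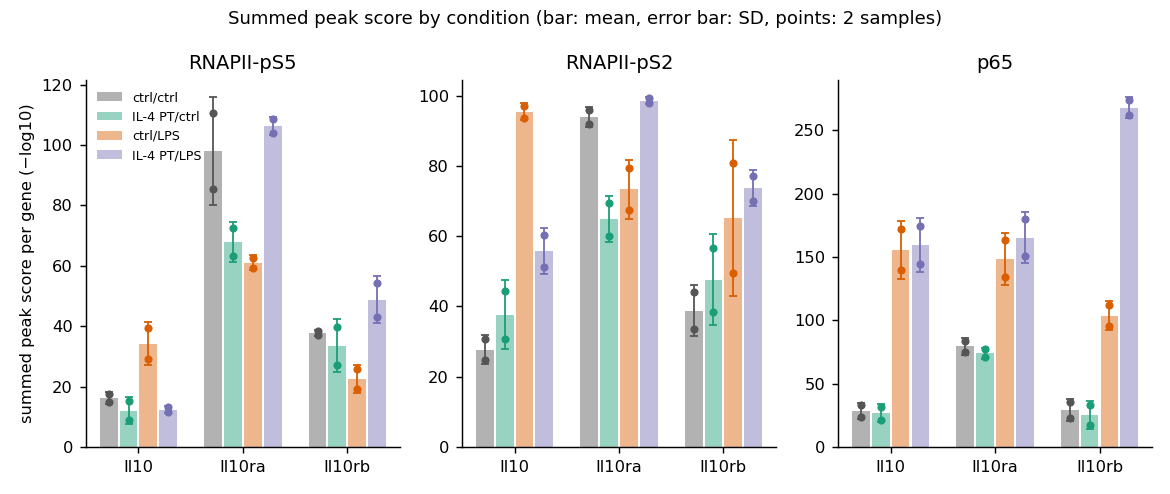
Summed peak score per gene (−log10) of Il10, Il10ra, and Il10rb in the 4 conditions for RNAPII-pS5, RNAPII-pS2, and p65, with bars for the mean, error bars for the SD, and points for the 2 samples. Il10rb reaches 268 for p65 in IL-4 PT/LPS, and Il10 reaches 34.2 for RNAPII-pS5 and 95.4 for RNAPII-pS2 in ctrl/LPS.

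The genes whose summed RNAPII-pS5 score followed Il10 most closely over the 8 samples were 4833427F10Rik (Pearson r = 0.984), E230025N22Rik (0.973), Ppp2r2b (0.972), Glipr1 (0.971), and Map3k7cl (0.964). Those closest to Il10ra were Eif2ak2 (Pearson r = 0.978), Dok1 (0.937), Stat5a (0.934), Nfatc3 (0.934), and Pdss2 (0.931). These were picked as the highest of 5015 genes over 8 samples that share their conditions, and the values describe likeness only.

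Genes around this pathway were followed with lists. Of the 12 genes of IL-10 receptor signaling and its targets, all had p300 regions tested, and 14 of 97 regions were higher and 5 lower after 1 hr of IL-4, with a median log2 difference of 0.12 (0.11 over all p300 regions). Of all p300 regions, 13.6% were higher and 7.44% lower, and 19.6% of this list's regions were called against 21%. Socs3, the feedback inhibitor that STAT signaling induces, had p300 scores of 7.55 and 19.2 in ctrl and 85.5 and 81.2 after IL-4 at −6.9 kb (log2 difference 2.12 ± 0.27, limma adjusted p = 2e-07). Dusp1, a phosphatase of MAP kinases, gained an H3K27Ac region at −26.3 kb with 486 and 496 after IL-4. With LPS alone, 15 of the 49 RNAPII-pS5 regions of this list were higher and 10 lower, against 11.6% higher and 18.9% lower over all RNAPII-pS5 regions. Among the higher ones was Zfp36, which encodes an mRNA-destabilizing protein and rose from 25.5 and 25.8 to 55.9 and 64.2 at +1.7 kb (1.41 ± 0.10, limma adjusted p = 0.00153).

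Of the known regulators of Il10 transcription, 33 of 161 p300 regions were higher and 15 lower after IL-4, so that 29.8% were called against 21% of all. H3K27Ac of the same list was more often lower, with 14 of 60 regions higher and 27 lower. Of these 60, 68.3% were called against 43.4% of all H3K27Ac regions, with a median log2 difference of −0.30 (−0.02 over all). The p300 counts thus give no common direction for this list. Rel, an NF-κB subunit, went from 5.67 and 22.6 to 162 and 156 at −50.2 kb (3.14 ± 0.24, limma adjusted p = 8.22e-12). Map3k8, a kinase upstream of ERK, had no p300 peak in ctrl and 132 and 128 after IL-4 at +1.5 kb, and Maf, a transcription factor that activates Il10, had 26.6 and 90.1 in ctrl and 24.2 and 19.4 after IL-4 at +278.7 kb (−1.85 ± 0.26, limma adjusted p = 2.09e-06). With LPS alone, 18 of the 70 RNAPII-pS5 regions of these regulators were higher and 7 lower (35.7% called, against 30.4% of all), with a median of 0.50 against −0.11 over all regions.

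Among the class II cytokine receptors, the family of Il10ra and Il10rb, 9 of 71 p300 regions were higher and 4 lower after IL-4, and the 18.3% called were under the 21% of all p300 regions. Il20rb, a chain of the receptors for IL-19, IL-20, and IL-24, went from 13.8 and 27.4 to 193 and 177 at −2.4 kb (2.58 ± 0.23, limma adjusted p = 2.7e-10), and its partner Il20ra had no ctrl peak and 83.1 and 95.5 after IL-4 at −19.6 kb. Of the neighbours of Il10 on chromosome 1, 2 of 28 p300 regions were higher and 2 lower, or 14.3% called against 21% of all.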

How the data were processed

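Chromatin was crosslinked with DSG and formaldehyde and profiled by ChIP-seq with 9 antibodies in 56 samples of mouse BMDMs. BWA alignments to mm10 were made by the authors, who took peaks from MACS2, filtered at a q-value, or with HOMER findPeaks for H3K27Ac; the submitters' notes name BWA 0.7.10, SAMtools 0.1.19, HOMER 4.2, and MACS2 2.0.10. The deposited values are 1 HOMER-annotated peak list per sample, with a −log10 score for all antibodies but H3K27Ac and a signal in normalized tags, over regions of 1001 bp, for H3K27Ac. In the deposited lists some −log10 scores lie under 2. No reads were analysed, so depth is unknown and limits the precision to an unknown extent.

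Peaks of one antibody overlapping by at least 1 bp were merged within an experiment, and each sample was given its highest log2 score per region. Regions with a peak in at least 2 samples were tested. Missing peaks took the lowest score of the antibody, and samples were centred on the median of regions with a peak in all samples. Limma 3.58.1 (R 4.3.3, moderated with a trend) was fitted over all regions, without a replicate term, for 23 comparisons, with Benjamini-Hochberg adjustment. The code was tested on simulated data. Windows of 200 bases were read from GRCm38 (RefSeq), which is mm10. Genes were annotated by HOMER to the nearest start site, so a region may lie in another gene.

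Named regions were those called, at most 4 per gene and antibody by lowest p, or otherwise the region with the highest mean score; others are said to be chosen after their values were seen or are given as values only. The members, gene lists, and tests were chosen with earlier results of these data known. List genes were named as the 4 of lowest p per list. Alternatives covered filters, floors, scalings, overlaps, intergenic peaks, gene sums, a replicate block, and leaving out each sample. One floor after centring was added after seeing the data.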

Additional observations from a re-analysis of the deposited data

Results flagged for a closer look

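The LPS effect differed with and without IL-4 pretreatment, by limma's adjusted p over all regions, at 10 regions of these genes. Each value is the log2 LPS effect with pretreatment minus that without. For RNAPII-pS5 it was −2.65 at Il10 +1.1 kb, −2.84 at Il10 +5.9 kb, and 2.20 at Il10ra −12.0 kb. At the last region peaks were present only in ctrl/ctrl, so the value comes from the samples without LPS. For RNAPII-pS2 it was −2.36 at Il10 +1.1 kb, −4.14 at Il10 +18.3 kb, and 2.57 at Il10 0.0 kb, where again only ctrl/ctrl had peaks. For p65 it was 2.79 at Il10 −18.8 kb, 1.55 at Il10rb −12.9 kb, 4.89 at Il10rb +16.5 kb, and 0.83 at Il19 +5.9 kb, all with peaks only in IL-4 PT/LPS. These 4 regions entered the test through IL-4 PT/LPS alone and the other samples held the floor, so their p is no separate evidence of a difference. No outlier test was made, since each group had 2 samples.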

How the results depend on the processing

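Of 112 called regions and comparisons, 49 were called in every fit without 1 sample that could be made, some of them regions where samples without a peak all held the one floor, and 15 changed sign under at least 1 other setting. In all, 1127 of the values of named regions under other settings kept their direction and side of the threshold, 158 lost the call, and 22 changed sign, and of those without 1 sample 555 kept it and 229 lost the call. Counts below are of called regions, with the comparisons written as LPS, IL-4 (24 hr IL-4 alone), PT (pretreatment under LPS), LPS with PT, and difference (of the LPS effects).

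Without 1 sample, the counts ranged from 2 to 6 for H3K27Ac, 4 to 14 for p300, 0 to 2 for PU.1, and 0 to 1 for HDAC3. For RNAPII-pS5 they ranged from 5 to 9 (LPS), 0 to 3 (IL-4), 1 to 4 (PT), 3 to 9 (LPS with PT), and 0 to 2 (difference), for RNAPII-pS2 from 4 to 14, 1 to 3, 0 to 3, 4 to 11, and 1 to 4, and for p65 from 10 to 16, 0 to 2, 0 to 9, 5 to 13, and 0 to 5. With a peak required in every sample of a group, they were 3 for RNAPII-pS5, 1 for RNAPII-pS2, and 2 each for PU.1, HDAC1, HDAC2, and HDAC3 after 1 hr of IL-4, and 5 for the RNAPII-pS5 difference. At an unadjusted p they were 4, 5, 4, 2, and 1 for RNAPII-pS5, PU.1, HDAC1, HDAC2, and HDAC3 after 1 hr, 8 for the RNAPII-pS5 difference, 8 each for RNAPII-pS2 IL-4 and difference, and 3 and 7 for p65 IL-4 and difference. Over all regions, the unadjusted counts were 7908 of 27609 for the RNAPII-pS5 difference, and 12660 and 12080 of 39261 for RNAPII-pS2 IL-4 and difference. For p65 IL-4 and difference, 3872 and 12405 of all 37564 regions passed unadjusted. Those after 1 hr of IL-4 are given with the results above. Scores summed per gene left out peaks annotated as intergenic, and their counts are of genes. These counts were 1 for H3K27Ac, 0 for p300, 1, 0, 2, 1, and 1 for RNAPII-pS5, 0, 1, 0, 1, and 0 for RNAPII-pS2, and 2, 0, 0, 2, and 0 for p65. Without centring they were 0 for p300, 6 for the RNAPII-pS5 difference, and 0 for p65 IL-4. Without intergenic peaks they were 4 for p300, 2 and 4 for RNAPII-pS5 LPS and LPS with PT, 6, 1, and 7 for RNAPII-pS2 LPS, PT, and LPS with PT, and 10 and 7 for p65 LPS and LPS with PT. With a floor 4 times as high they were 4, 1, 5, and 0 for RNAPII-pS5 LPS, IL-4, LPS with PT, and difference, 6 and 1 for RNAPII-pS2 LPS with PT and difference, and 0 and 8 for p65 IL-4 and difference. With the upper 75% of peaks they were 4 and 0 for RNAPII-pS5 LPS and difference, 6 for RNAPII-pS2 LPS with PT, and 0 for p65 IL-4. With quantile normalization they were 5 for RNAPII-pS5 LPS with PT, 1 for RNAPII-pS2 PT, and 0 and 2 for p65 IL-4 and difference. With an equal number of peaks they were 0, 2, and 1 for p65 IL-4, PT, and difference. The RNAPII-pS5 difference was 5 with summed scores per region and 5 with one floor after centring, an alternative added after seeing the data. With a peak in at least 1 sample, RNAPII-pS2 IL-4 was 2 and p65 IL-4 was 0.

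At regions with a peak in every sample, samples with the same replicate number did not deviate together (correlations of −0.048 to 0.06). This cannot tell whether such samples share an animal or a batch. A replicate block moved only the p65 IL-4 count by over 1.5 times, to 0. Signs changed with a floor 4 times as high at RNAPII-pS5 Il10ra +24.2 kb (LPS, 0.024), Il10ra +7.0 kb (PT, −0.19), and Il10 +1.1 and +5.9 kb (LPS with PT, 0.0059 and 0.0059), RNAPII-pS2 Il10 +1.8 kb (LPS −0.19, LPS with PT −0.19), and p65 Il10 +30.3 kb (LPS −0.35, LPS with PT −0.45), Il19 +5.9 kb (PT −0.27, difference −0.46), Il10rb −12.9 kb (PT −0.18, difference −0.37), and Il10 −18.8 kb (LPS with PT −0.26). They changed with the upper 75% of peaks at RNAPII-pS5 Il10ra +7.0 kb (PT −0.11) and p65 Il10 +30.3 kb (LPS −0.0747, LPS with PT −0.23) and Il10 −18.8 kb (LPS with PT −0.031), with an equal number of peaks at RNAPII-pS5 Il10 +5.9 kb (LPS with PT 0.033), without centring at p65 Il10ra +23.0 kb (LPS 0.30, LPS with PT 0.21), and with quantile normalization at p65 Il19 +5.9 kb (PT −0.13, difference −0.081). The cause of these changes was not tested. Depth, which is unknown, limits which weak peaks were listed.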
